A study of Homo sapiens with 480 samples.

Results

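The 10 transcription regulators of the AP-1 and EGR immediate early class were followed through a cell line model of HIV latency and its reversal. They are EGR1, EGR2, EGR3, FOS, FOSL2, JUN, JUNB, JUND, IER2 and BATF, 10 of the 20302 features of the deposited table. They were listed by name, with earlier results of these data known. Jurkat cells descend from a human T cell leukaemia. J-Lat A2 cells are 1 clone of Jurkat with an integrated HIV-derived construct, which all 3 J-LatA2 groups carry, so any difference between the lines is a difference between 1 clone and its parent line. Both lines received the vehicle DMSO (0.1% v/v), SAHA (vorinostat, an inhibitor of histone deacetylases, 1 uM) or PMA (a phorbol ester and activator of protein kinase C, 1 ug/mL) for 24 h, and single cells were then sorted into wells for full-length cDNA sequencing. These 6 groups are called J-LatA2 or Jurkat with DMSO, SAHA or PMA. J-LatA2 with DMSO, J-LatA2 with SAHA and Jurkat with DMSO were on 5 plates from 2 experimental batches, whereas J-LatA2 with PMA, Jurkat with SAHA and Jurkat with PMA were on the 3 plates of the second batch alone (plates P2769, P2770 and P2771).

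Immediate early genes are transcribed within minutes of a stimulus without new protein synthesis, largely through mitogen-activated kinases acting on factors that already sit at their promoters, and their transcripts usually decay within hours. FOS and FOSL2 pair with JUN, JUNB or JUND to form AP-1, which binds the sequence TGACTCA, and BATF pairs with JUN proteins and cooperates with IRF factors. EGR1, EGR2 and EGR3 are zinc finger factors induced through the T cell receptor and by phorbol ester, and IER2 is a small nuclear protein induced with them. The HIV long terminal repeat is among the promoters that respond to protein kinase C. The question the groups allow is how these 10 genes stood 24 h after each agent, long after the first wave.

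The CArG box is the site of serum response factor and a classic element of immediate early genes (CC, then 6 bases that are each A or T, then GG). Among the 9 members with a window of 250 bases before an annotated start, EGR1 and EGR2 carried it there. Sequence further upstream was not searched. Their 250 bases before the annotated start are printed because both genes were read on every PMA plate of both lines and were at or near 0 with DMSO. The sequences are from RefSeq (GRCh38.p14), 5′ to 3′ on the strand of the gene, with each CArG box in capitals. EGR1 lies at chr5:138465229-138465478 on the plus strand, and EGR2 at chr10:62816367-62816616 on the minus strand, before the most downstream of its 3 listed starts.
EGR1: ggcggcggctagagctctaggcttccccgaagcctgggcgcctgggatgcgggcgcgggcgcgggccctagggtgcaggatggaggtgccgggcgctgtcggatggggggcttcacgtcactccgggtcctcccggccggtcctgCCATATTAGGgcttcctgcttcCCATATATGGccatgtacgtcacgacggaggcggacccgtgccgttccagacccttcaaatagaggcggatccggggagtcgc
EGR2: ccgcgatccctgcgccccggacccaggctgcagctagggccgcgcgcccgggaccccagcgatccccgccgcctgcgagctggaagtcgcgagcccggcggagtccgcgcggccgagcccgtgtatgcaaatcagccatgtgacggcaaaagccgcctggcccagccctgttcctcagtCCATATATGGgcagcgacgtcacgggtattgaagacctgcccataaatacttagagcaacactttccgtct
The second box of EGR1 ran from base 83 to base 74 before its start, and that of EGR2 from base 71 to base 62. Windows were found for 9 of the 10 members (11 windows in all, none used for EGR3), and a CArG box stood in 2 of the 11, against 1.16% of 35116 RefSeq windows of the same length. The cyclic AMP element TGACGTCA stood in the JUND window and in 1.65% of all windows. The AP-1 site TGACTCA was in 0 of the 11 windows (4.2% of all) and the EGR site GCGTGGGCG in 0 (0.72% of all). Both strands were searched, and none of the matches in the members overlapped another. A match is a description of these letters and not of binding.

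Of 480 wells, 410 were kept, with totals from 19756 to 984418 counts and a median of 514679. All wells were kept for the 3 Jurkat groups, but 67.2% for J-LatA2 with SAHA. Summed by group and batch, depth ran from 4682167 counts (Jurkat with DMSO, first batch) to 36603793 (J-LatA2 with PMA). Levels are CPM, the counts of a gene scaled to a total of 1000000 for the summed wells of a plate, and gene spans are those of GENCODE on GRCh38. CPM is not divided by transcript length, so a level is compared between groups and never between genes. Tests used edgeR on 9 sums by group and batch, and a gene is called at an adjusted p under 0.05. A group with 1 sum has no spread of its own, and its test borrows the spread of the groups with 2. Nothing in the labels says that batches or plates came from separate cultures, so the p-values measure the spread between these sums, which may be technical. The marker genes of a T cell line were read in every group, with CD4 at 0 in 5 of the 6. Their sum over 12 genes shifted with each agent, from 2500 to 2910 CPM per plate with DMSO to 455 to 772 with SAHA and 5030 to 5660 with PMA in J-LatA2, and from 2410 to 3230 to 604 to 700 and 5580 to 5900 in Jurkat. Their part in the results below was not tested. The B cell markers MS4A1, CD79B and PAX5 were at 0 in every group.

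With PMA, 3 members rose in J-LatA2 (EGR1, EGR2 and IER2) and 1 rose in Jurkat (IER2), while none fell in either line. The background was 1.98% of 13560 genes called with PMA in J-LatA2 and 2.27% in Jurkat. Because the members were chosen with earlier results of these data known, counts set beside such shares are no test of the class. With SAHA, 1 member (JUN) rose in J-LatA2, where 8.43% of all genes were called, and 0 of 10 were called in Jurkat, where 4.22% were. In Jurkat with SAHA, 4 members had an unadjusted edgeR p under 0.05, as did 17.2% of all genes. Of these 4 members, EGR2 and FOS were higher and IER2 and JUNB lower, and EGR2 was read there in 1 well only. DESeq2 called FOS, IER2 and JUNB. PMA set directly against SAHA gave 2 higher members in J-LatA2 (EGR1 and IER2, background 3.62%) and 1 in Jurkat (IER2, background 3.86%). These comparisons share their DMSO, SAHA or PMA sums, so they are not separate pieces of evidence. All 10 members passed the filter on low counts, although several passed only through 1 or 2 groups.

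**Figure D1:**
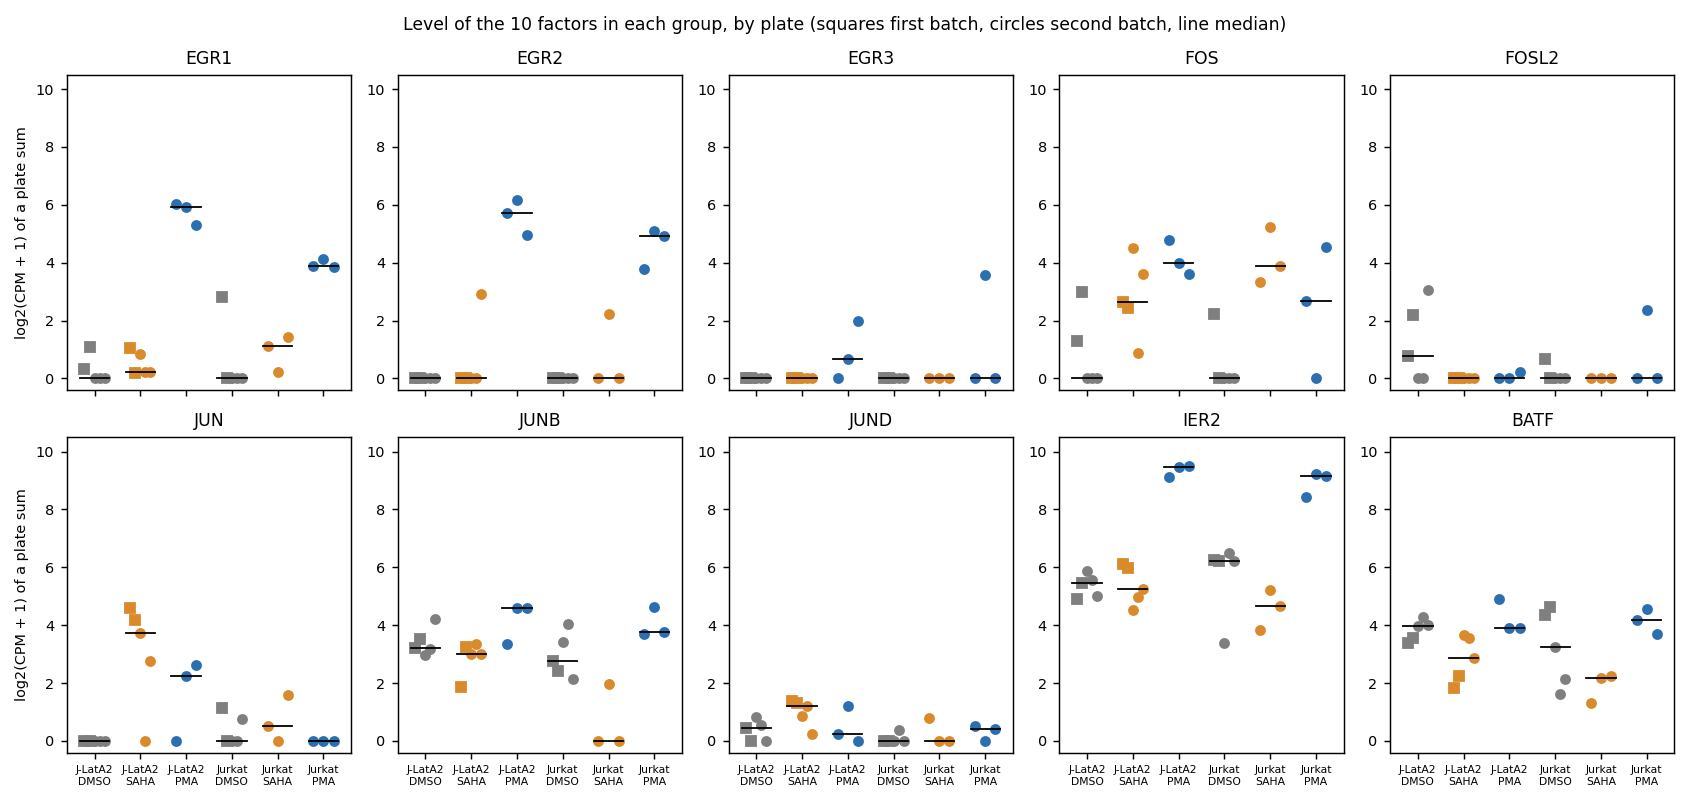
Level of each of the 10 factors as log2(CPM + 1) of a plate sum (vertical axis) in the 6 groups (horizontal axis), where each point is 1 plate, squares are the first batch, circles the second, and the line is the median. EGR1, EGR2 and IER2 stood higher on each PMA plate than on any DMSO or SAHA plate of either line, whereas JUN was above 0 mainly with SAHA in J-LatA2.

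IER2 (chr19:13150415-13154908) was the member read most widely, and PMA raised it in both lines. In J-LatA2 the 3 PMA plates stood at 553.5, 714.2 and 715.6 CPM, and the 5 DMSO plates at 29.2, 42.5, 57.7, 45.97 and 31.3 CPM. In Jurkat the 3 PMA plates stood at 347.2, 593.5 and 568.4 CPM, and the 5 DMSO plates at 75.2, 72.9, 9.34, 88.6 and 72.9 CPM. The lowest PMA plate was thus several times above the highest DMSO plate in each line, with no overlap. The fitted log2 change with PMA was 4.19 ± 0.39 (approximate SE) in J-LatA2 (adjusted p = 0.000621, edgeR) and 2.98 ± 0.39 in Jurkat (adjusted p = 0.00478, edgeR). Each value after ± beside an edgeR change is the size of the change divided by the square root of the test's F statistic. It is not a separately fitted error, and it is unreliable where sums are 0 or near 0. Within the second batch, where all groups shared their plates, IER2 was 14.4-fold higher with PMA in J-LatA2 (counting interval 13.5 to 15.4) and 8.15-fold higher in Jurkat (7.47 to 8.91). These intervals, like all others from counts here, cover counting error only, since the reads carry no molecular identifiers.

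The IER2 difference with PMA was seen in level as well as in detection. A read was found in 79 of 79 wells of J-LatA2 with PMA and 36 of 36 of Jurkat with PMA, against 61 of 94 and 25 of 30 with DMSO. Among wells with a read, the median was 526.2 CPM with PMA against 46.9 CPM with DMSO in J-LatA2, and 452.9 against 70.1 CPM in Jurkat. The 90th percentile over DMSO wells with a read was 105.8 CPM in J-LatA2 and 141.4 CPM in Jurkat, below the 10th percentile of the PMA wells in each line.

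With SAHA, IER2 was not called in either line. The J-LatA2 SAHA plates stood at 67.6, 62.3, 21.8, 30.8 and 37.4 CPM and overlapped the DMSO plates, with a log2 change of 0.15 ± 0.32 (adjusted p = 0.853, edgeR). That change joined batches that went opposite ways. IER2 with SAHA was at 65.8 CPM in the first batch, where DMSO was at 32.4, and at 29.9 CPM in the second, where DMSO was at 46.01, so the direction turned between batches, and the fit to the second batch alone gave -0.65. In Jurkat the SAHA plates stood at 13.3, 36.1 and 24.2 CPM, and the log2 change was -1.31 ± 0.42 (adjusted p = 0.133, edgeR). DESeq2 gave -1.32 there with an adjusted p of 0.0167, and leaving out either J-LatA2 SAHA sum also brought the edgeR adjusted p under the threshold (0.00998 without the first batch, 0.00702 without the second). PMA against SAHA gave 4.03 ± 0.41 in J-LatA2 (adjusted p = 0.000503, edgeR) and 4.28 ± 0.50 in Jurkat (adjusted p = 0.00137, edgeR). By median over plates the 6 groups ran from J-LatA2 with PMA (714.2 CPM) and Jurkat with PMA (568.4) down to Jurkat with DMSO (72.9), J-LatA2 with DMSO (42.5), J-LatA2 with SAHA (37.4) and Jurkat with SAHA (24.2). The ranges of neighbours in that order overlapped except at the step from PMA to DMSO.

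EGR1 (chr5:138465490-138469315), a zinc finger factor that activates many growth and cytokine genes, was nearly silent without PMA. In J-LatA2 it stood at 63.5, 60.2 and 38.7 CPM on the PMA plates, and at 0.254, 1.14, 0, 0 and 0 CPM on the DMSO plates. In Jurkat it stood at 13.9, 16.6 and 13.3 CPM with PMA, and at 6.09, 0, 0, 0 and 0 CPM with DMSO. No PMA plate overlapped a DMSO plate in either line, and no J-LatA2 PMA plate overlapped a Jurkat PMA plate. The only Jurkat DMSO plate above 0, from the first batch, owed its value to 1 well with 20 reads.

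The fitted log2 change of EGR1 with PMA was 10.55 ± 1.96 in J-LatA2 (adjusted p = 0.0255, edgeR) and 5.75 ± 1.83 in Jurkat (adjusted p = 0.171, edgeR). A fitted change against sums of 0 depends on the small count that the software adds, so the second batch is given as a bound. There EGR1 had 2000 reads with PMA and 0 with DMSO in J-LatA2, hence at least 364-fold higher against a floor of 3 counts over the group. In Jurkat it had 283 reads against 0, at least 42.6-fold higher against the same floor. Both bounds hold for the second batch only. Over both batches EGR1 was 209-fold higher with PMA in J-LatA2 and 9.81-fold higher in Jurkat. First-batch DMSO stood at 0.465 CPM in J-LatA2 and 4.27 CPM in Jurkat. The J-LatA2 call was lost without the second-batch DMSO sum (9.63, adjusted p = 0.117, edgeR), without plate P2449 (8.25, adjusted p = 0.183) and with no batch term (7.83, adjusted p = 0.0639). In Jurkat 6 alternatives brought EGR1 past the threshold. They include DESeq2 (6.31, adjusted p = 0.0069), the second batch alone fitted by plate (9.83, adjusted p = 0.00665, edgeR) and the fit without the first-batch Jurkat DMSO sum (11.40, adjusted p = 0.0461, edgeR).

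In single wells, EGR1 was found in 72 of 79 with PMA in J-LatA2 (91.1%, 95% Clopper-Pearson interval 82.6 to 96.4) and in 22 of 36 in Jurkat (61.1%, 43.5 to 76.9). Such intervals, here and for every other share of wells, treat wells as independent and ignore plates. The shares on the 3 plates were 92.3%, 88.9% and 92.3% in J-LatA2, and 58.3%, 50.0% and 75% in Jurkat, so the lines did not overlap. With each well thinned to 100000 counts the shares were 80.2% and 43.5%. In wells with a read the median was 41.1 CPM in J-LatA2 and 14.9 CPM in Jurkat. With DMSO a read was found in 4 of 94 and 1 of 30 wells, and with SAHA in 8.1% and 8.3% of wells. The SAHA plates stood at 1.05, 0.133, 0.816, 0.165 and 0.171 CPM in J-LatA2 and at 1.18, 0.153 and 1.68 CPM in Jurkat, all far below the PMA plates. PMA against SAHA gave 8.01 ± 1.65 in J-LatA2 (adjusted p = 0.0264, edgeR). That call was lost without plate P2770 (7.58, adjusted p = 0.0616) or plate P2771 (7.87, adjusted p = 0.0539).

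**Figure D2:**
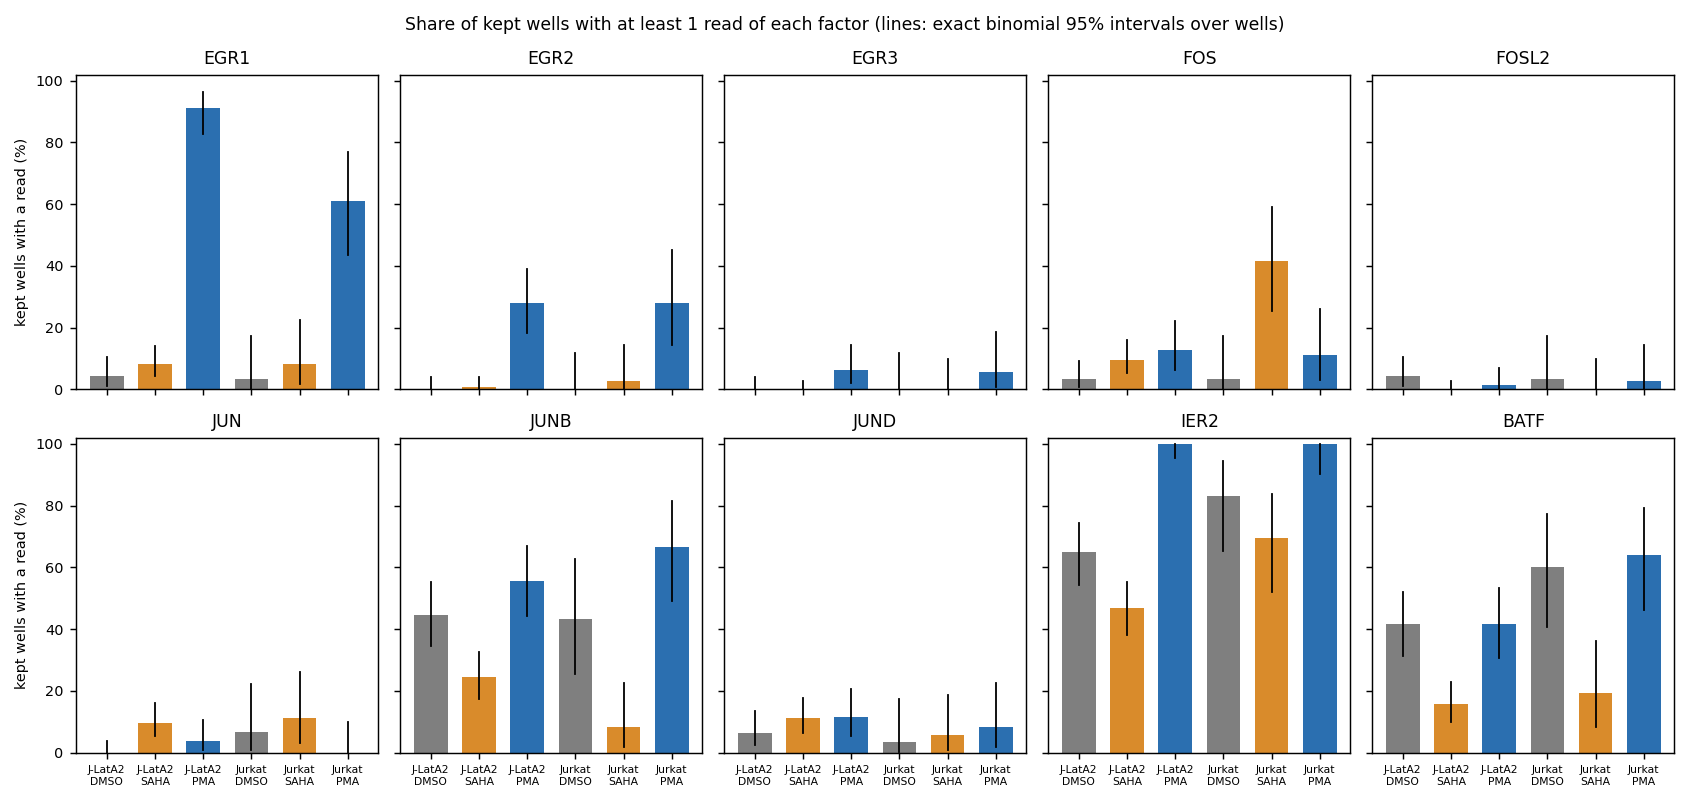
Share of kept wells with at least 1 read of each factor in percent (vertical axis) in the 6 groups (horizontal axis), where bars are the share over all kept wells and lines are exact binomial 95% intervals over wells. EGR1 reached 91.1% of wells in J-LatA2 with PMA and 61.1% in Jurkat with PMA, while FOS was highest in Jurkat with SAHA at 41.7%.

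EGR2 (chr10:62811996-62919900), an EGR factor tied to T cell unresponsiveness as well as activation, was read with PMA in a minority of cells. The PMA plates stood at 51.9, 71.6 and 30.2 CPM in J-LatA2 and at 12.9, 32.8 and 29.7 CPM in Jurkat, and all 10 DMSO plates were at 0. The log2 change with PMA was 11.86 ± 2.11 in J-LatA2 (adjusted p = 0.0343, edgeR) and 11.37 ± 2.39 in Jurkat (adjusted p = 0.0581, edgeR). Against the same floor in the second batch, EGR2 was at least 351-fold higher in J-LatA2 (1925 reads against 0) and at least 71.8-fold higher in Jurkat (477 against 0). The J-LatA2 call was lost without the second-batch DMSO sum (4.90, adjusted p = 1, edgeR), without any of plates P2458, P2769, P2770 and P2771 (adjusted p from 0.0518 to 0.12) and in DESeq2 (11.96, adjusted p = 0.297). The Jurkat change passed the threshold in 6 alternatives, among them all 480 wells (adjusted p = 0.0368, edgeR).

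EGR2 was found in 22 of 79 wells with PMA in J-LatA2 and 10 of 36 in Jurkat, which is 27.8% in both lines (intervals 18.3 to 39.1 and 14.2 to 45.2). In those wells it was abundant, with a median of 168.6 CPM in J-LatA2 and 70.8 CPM in Jurkat and a highest well of 1529 CPM. The plate sums above thus came from a minority of the cells. With SAHA, EGR2 was found in 1 well of J-LatA2 (6.57 CPM on plate P2771) and in 1 of 36 of Jurkat (3.68 CPM on plate P2770). The fitted change with SAHA in J-LatA2 (7.16, adjusted p = 0.0635, edgeR) rested on that 1 well and was 0 to 2 decimals without its plate. EGR3, which often rises with EGR2 in T cells, was read with PMA only, in 5 of 79 wells of J-LatA2 and 2 of 36 of Jurkat. Its PMA plates stood at 0, 0.586 and 2.94 CPM in J-LatA2 and 0, 10.9 and 0 CPM in Jurkat, and 1 well held 73.2% of its reads in J-LatA2. The log2 change of EGR3 was 7.62 ± 5.87 in J-LatA2 (adjusted p = 0.749, edgeR) and 9.26 ± 6.81 in Jurkat (adjusted p = 0.676, edgeR).

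FOS (chr14:75278774-75282230), the inducible partner of the JUN proteins, was read with both agents but passed the test with neither. With SAHA in Jurkat it stood at 9.14, 36.8 and 13.8 CPM, against 3.65, 0, 0, 0 and 0 CPM on the DMSO plates, so the groups did not overlap. With SAHA in J-LatA2 it stood at 5.25, 4.37, 21.7, 0.825 and 11.1 CPM, against 1.47, 6.83, 0, 0 and 0 CPM with DMSO, and these overlapped. With PMA it stood at 26.6, 14.9 and 11.3 CPM in J-LatA2 and at 5.43, 0 and 22.3 CPM in Jurkat. The PMA plates of J-LatA2 all stood above its DMSO plates, whereas those of Jurkat overlapped.

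The log2 change of FOS with SAHA was 6.98 ± 2.53 in Jurkat (adjusted p = 0.18, edgeR) and 5.20 ± 2.25 in J-LatA2 (adjusted p = 0.219, edgeR). With PMA it was 6.79 ± 2.56 in J-LatA2 (adjusted p = 0.29, edgeR) and 5.72 ± 2.51 in Jurkat (adjusted p = 0.355, edgeR). FOS had no read with DMSO in the second batch of either line. It was at least 58.1-fold higher with SAHA and 25.4-fold higher with PMA in Jurkat there, and at least 74.98-fold and 116.9-fold higher in J-LatA2, against a floor of 3 counts. Over both batches the J-LatA2 ratios were 5.73 with SAHA (counting interval 4.46 to 7.45) and 11.3 with PMA (8.85 to 14.7). The 71 FOS reads of J-LatA2 with DMSO were all on first-batch plates. Within the first batch FOS in J-LatA2 was at 4.95 CPM with SAHA and 2.75 CPM with DMSO. In Jurkat the ratios over both batches were 22.3 and 9.76. DESeq2 called FOS in all of these comparisons, with adjusted p of 0.00233 (SAHA, Jurkat), 0.000472 (SAHA, J-LatA2), 0.00213 (PMA, J-LatA2) and 0.0194 (PMA, Jurkat). Without the first-batch J-LatA2 SAHA sum, edgeR also passed all 4 (adjusted p from 0.00773 to 0.0212).

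The wells of Jurkat that held FOS were set side by side for both agents. FOS was found in 15 of 36 wells with SAHA (41.7%, interval 25.5 to 59.2) and in 4 of 36 with PMA (11.1%, 3.11 to 26.1), and the difference between the shares was not tested. The log2 change of PMA against SAHA was -1.26 ± 2.14 (adjusted p = 0.907, edgeR). The SAHA wells were 2, 7 and 6 of 12 on the 3 plates. In J-LatA2 the shares were 9.6% with SAHA and 12.7% with PMA. Of the 15 Jurkat SAHA wells with FOS, 1 also had EGR1, which was in 8.3% of all wells of that group. Of the 10 J-LatA2 PMA wells with FOS, 8 had EGR1, which was in 91.1% of all wells there.

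**Figure D3:**
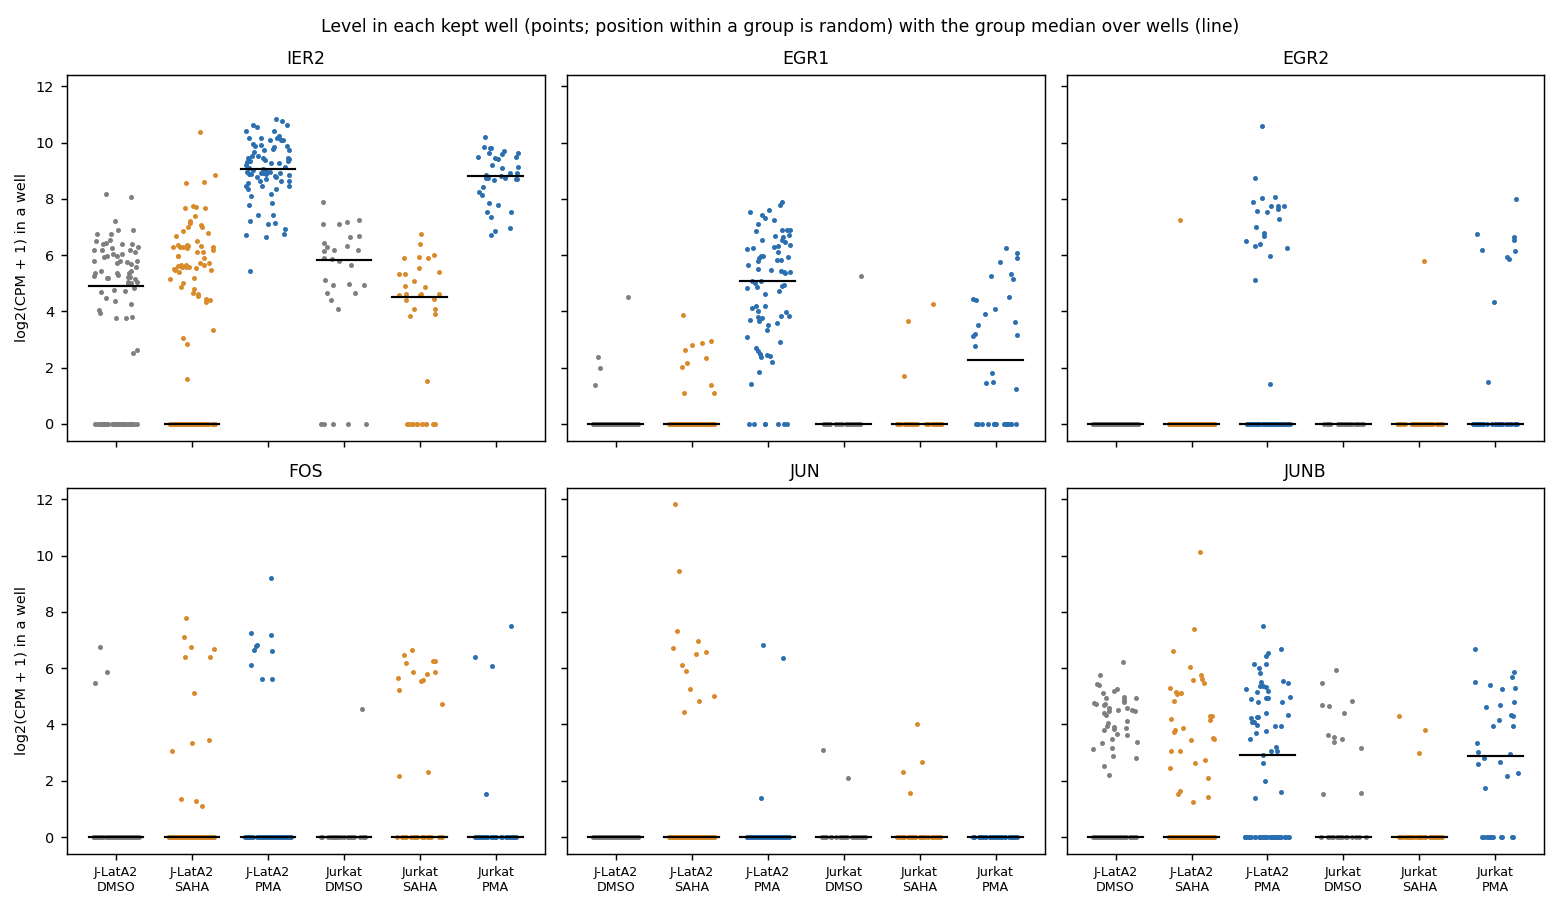
Level in each kept well as log2(CPM + 1) (vertical axis) for IER2, EGR1, EGR2, FOS, JUN and JUNB in the 6 groups (horizontal axis), where each point is 1 well and the line is the median over wells. IER2 was above 0 in all PMA wells, EGR1 in most J-LatA2 PMA wells, and EGR2 and FOS in a minority of wells whose values lay well above 0.

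JUN (chr1:58780788-58784327), the founding AP-1 subunit, rose with SAHA in J-LatA2. It was at 0 on all 5 DMSO plates and at 23.05, 16.96, 12.2, 0 and 5.71 CPM on the SAHA plates, so 4 of 5 SAHA plates stood above every DMSO plate and plate P2770 did not. The log2 change was 11.16 ± 2.29 (adjusted p = 0.0191, edgeR), and in the second batch JUN was at least 39.9-fold higher (216 reads against 0). Of the SAHA wells, 9.6% had a read (13 wells, interval 5.23 to 15.9), against 0 of 94 with DMSO, which allows a share of up to 3.85% (upper bound of the same interval). These intervals treat wells as independent and ignore plates. By plate the JUN shares in J-LatA2 with SAHA ran from 0% on plate P2770, as with DMSO, to 17.2% on plate P2449. In those wells the median was 89.9 CPM, and 1 well held 31.6% of all JUN reads. The call was lost when any 1 of the 4 J-LatA2 DMSO and SAHA sums was left out (adjusted p from 0.06 to 0.154, edgeR), without plate P2449 (adjusted p = 0.0598) or P2771 (0.0619), and in the second batch alone (8.44, adjusted p = 0.19).

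In the other groups JUN was rare. It stood at 0, 3.73 and 5.16 CPM with PMA in J-LatA2, where 3 of 79 wells had a read and the log2 change was 10.14 ± 2.40 (adjusted p = 0.0806, edgeR). DESeq2 (9.26, adjusted p = 0.00323) and edgeR on all 480 wells (11.51, adjusted p = 0.00808) passed that change. In Jurkat it stood at 0.442, 0 and 2.02 CPM with SAHA, at 1.22, 0, 0, 0 and 0.681 CPM with DMSO, and at 0 on all 3 PMA plates. None of the Jurkat changes of JUN was called.

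JUNB and BATF were read in cells with DMSO and were not called by edgeR in any of the 9 comparisons, though DESeq2 called JUNB in 2 of them, given below. JUNB, which usually opposes JUN within AP-1, stood at 8.23, 10.6, 6.88, 8.08 and 17.3 CPM with DMSO in J-LatA2 and at 9.31, 23.1 and 23.4 CPM with PMA, and these groups overlapped. In Jurkat it stood at 5.79, 4.29, 9.74, 15.6 and 3.40 CPM with DMSO and at 11.9, 23.5 and 12.4 CPM with PMA, which also overlapped. The log2 change with PMA was 0.62 ± 1.00 in J-LatA2 (adjusted p = 0.927, edgeR) and 0.75 ± 0.98 in Jurkat (adjusted p = 0.871, edgeR). With errors of this size a change of JUNB by 1 on the log2 scale in either direction was not detectable.

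JUNB was low with SAHA in Jurkat. The SAHA plates stood at 0, 2.92 and 0 CPM, all below the lowest DMSO plate, and 3 of 36 wells had a read (8.3%, interval 1.75 to 22.5) against 13 of 30 with DMSO (43.3%, 25.5 to 62.6). All 3 SAHA wells were on plate P2770. The DMSO share joined both batches, with 2 and 1 of 6 wells on the first-batch plates and 2, 4 and 4 of 6 on the second-batch plates. The difference between the shares was not tested. The log2 change was -3.19 ± 1.17 (adjusted p = 0.185, edgeR), and DESeq2 gave -3.21 with an adjusted p of 0.0323. In the second batch the ratio to DMSO was 0.0992 (counting interval 0.057 to 0.164). In J-LatA2 the SAHA plates stood at 2.66, 8.48, 6.94, 9.24 and 7.08 CPM and overlapped DMSO, with a log2 change of -0.72 ± 0.78 (adjusted p = 0.684, edgeR). Taking all 480 wells turned that to 0.32. PMA against SAHA in Jurkat was 3.94 ± 1.25 for JUNB (adjusted p = 0.146, edgeR), and it was passed by DESeq2 (3.96, adjusted p = 0.0112) and by the fit to plate sums (4.61, adjusted p = 0.0261, edgeR). Of the wells with JUNB, 18.2% held a count that was not a whole number, the largest share among the members, so its values rest in part on estimated assignments.

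BATF, a factor of effector T cells that lacks a transactivation domain, showed the same order of groups as JUNB in Jurkat. It stood at 19.5, 23.6, 8.53, 2.10 and 3.40 CPM with DMSO, at 1.47, 3.53 and 3.70 CPM with SAHA and at 17.01, 22.3 and 12.1 CPM with PMA. In J-LatA2 it stood at 9.45, 10.9, 14.6, 18.3 and 15.0 CPM with DMSO, at 2.52, 3.71, 11.5, 10.8 and 6.23 CPM with SAHA and at 29.1, 13.8 and 13.8 CPM with PMA. The SAHA and DMSO plates overlapped in both lines, and every PMA plate stood above every SAHA plate in both. With SAHA the log2 change was -1.08 ± 0.95 in J-LatA2 (adjusted p = 0.606, edgeR) and -2.26 ± 1.45 in Jurkat (adjusted p = 0.508, edgeR). Over the alternatives it ran from -2.72 to -0.19 in J-LatA2 and from -4.08 (without the second-batch Jurkat DMSO sum) to -0.46 (second batch alone) in Jurkat. PMA against SAHA gave 1.55 ± 1.13 (adjusted p = 0.635, edgeR) and 2.53 ± 1.40 (adjusted p = 0.479, edgeR). A read of BATF was found in 41.5%, 15.6% and 41.8% of wells of J-LatA2 with DMSO, SAHA and PMA, and in 60%, 19.4% and 63.9% of wells of Jurkat. The Jurkat DMSO share joined unlike batches, with a read in 6 of 6 wells on each first-batch plate and in 2, 1 and 3 of 6 wells on the second-batch plates. BATF in Jurkat with DMSO was at 20.7 CPM in the first batch and 4.35 CPM in the second. Within the second batch the ratio to DMSO was 0.657 with SAHA (counting interval 0.427 to 1.02) and 3.98 with PMA (2.84 to 5.72).

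FOSL2 and JUND, the AP-1 subunits often described as the more constant ones, were close to the limit of detection throughout. FOSL2 had a read in 7 of the 410 wells and stood at 0.711, 3.58, 0, 0 and 7.34 CPM with DMSO in J-LatA2 and at 0 on every SAHA plate of both lines. Its log2 change with SAHA in J-LatA2 was -8.42 ± 3.90 (adjusted p = 0.266, edgeR). JUND had a read in 36 wells, and its highest plate stood under 2 CPM. All changes of JUND had an adjusted p of 0.806 or more against DMSO, and none was called. At this depth a change of either gene was not detectable, and the levels do not say that the genes were silent.

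**Figure D4:**
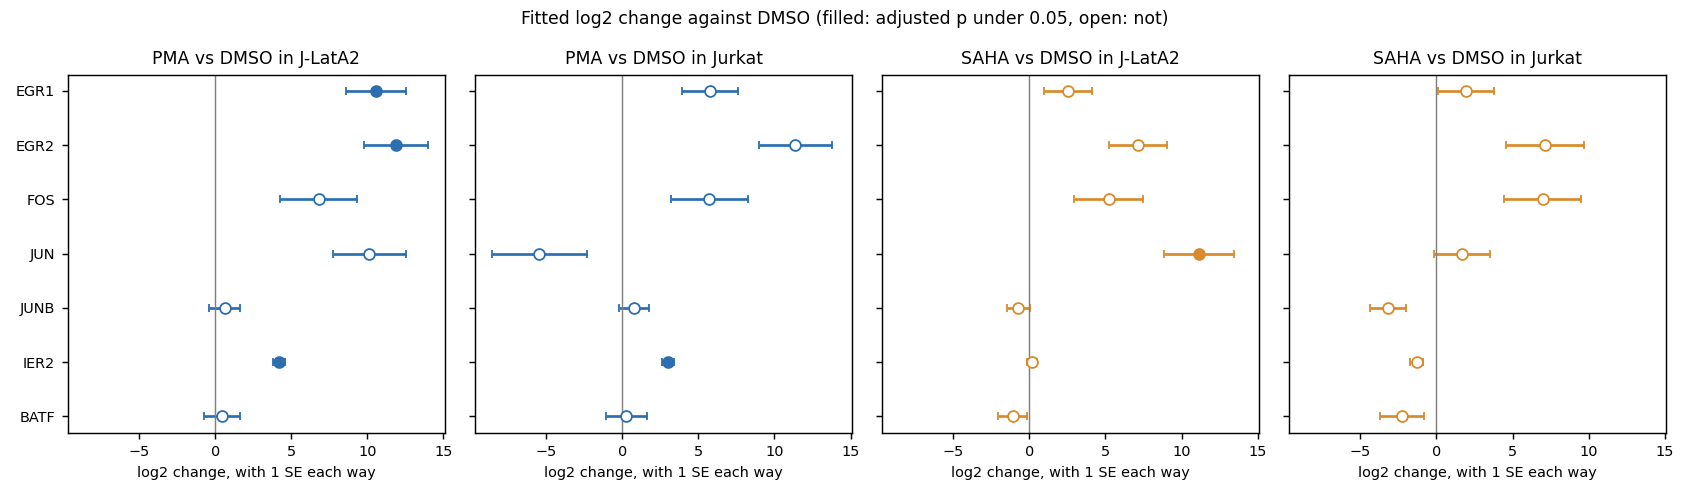
Fitted log2 change against DMSO (horizontal axis, edgeR) of 7 factors (vertical axis) in the 4 comparisons with PMA or SAHA. Points are the estimate, lines 1 approximate standard error each way and filled points an adjusted p under 0.05. The approximate error is the size of the change divided by the square root of the F statistic. IER2 had the shortest error bars, and the large changes of EGR1, EGR2, FOS and JUN rest on sums of 0 or near 0 with DMSO.

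With DMSO, 0 of 10 members were called between J-LatA2 and Jurkat (background 0.398%). At an unadjusted p under 0.05, where 9.29% of all genes stood, there were 2 members, both lower in J-LatA2. These were IER2 (-0.74 ± 0.32, adjusted p = 0.511, edgeR) and JUN (-6.55 ± 2.24, adjusted p = 0.363, edgeR), and DESeq2 called 0 as well. The difference between the lines in the response to PMA was also called for 0 members by edgeR (background 0.0221%). At an unadjusted p under 0.05 there were 2 members (IER2 and JUN) and 3.39% of all genes. DESeq2 called 1 (JUN, adjusted p = 0.0325). For EGR1 that difference was 4.80 ± 2.27 (unadjusted p = 0.061, adjusted p = 1, edgeR). Leaving out the first-batch Jurkat DMSO sum turned it to -2.06, and leaving out plate P2449 to -3.05, with EGR1 then at 0 in Jurkat with DMSO. For IER2 it was 1.21 ± 0.54 (adjusted p = 1, edgeR).

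The PMA levels of the 2 lines were set side by side within the second batch, with intervals that leave out the spread between cells and plates. How many of all genes differ by as much was not computed. The intervals lay on both sides of 1 for BATF (0.948 to 1.24) and JUND (0.771 to 7.22). J-LatA2 with PMA stood 3.74-fold above Jurkat with PMA for EGR1 (counting interval 3.3 to 4.25), 2.14-fold for EGR2 (1.93 to 2.37), 1.33-fold for IER2 (1.3 to 1.37) and 2.01-fold for FOS (1.69 to 2.4). JUN was at least 19.2-fold higher against a floor of 3 counts, and JUNB 1.18-fold (1.03 to 1.35). EGR3 and FOSL2 went the other way, at 0.306 (0.203 to 0.455) and 0.0392 (0.00452 to 0.156) of the Jurkat level, from 7 and 2 PMA wells in all. Of EGR1, EGR2, IER2 and FOS, the plate ranges were apart for EGR1 alone. The mean over plates was 54.1 ± 13.4 CPM (SD, n = 3 plates) in J-LatA2 and 14.6 ± 1.77 CPM in Jurkat for EGR1. For EGR2 it was 51.2 ± 20.7 and 25.1 ± 10.7 CPM, and for FOS it was 17.6 ± 8.03 and 9.25 ± 11.6 CPM. For SAHA the difference in response was called for 0 members (background 0.00737%), and DESeq2 called 0. At an unadjusted p under 0.05 there were 2 members, IER2 (1.46 ± 0.54) and JUN (9.49 ± 3.05), and 3.77% of all genes.

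Single wells show which factors occurred together. With PMA the median number of members read per well was 3 in both lines, against 2 with DMSO in both lines, 1 with SAHA in J-LatA2 and 2 with SAHA in Jurkat. Wells with 5 or more members numbered 14 of 79 in J-LatA2 with PMA, 5 of 36 in Jurkat with PMA, and 3 in all other groups together. EGR2 came with EGR1 in 21 of its 22 wells in J-LatA2 and 9 of its 10 in Jurkat. EGR1 itself was in 91.1% and 61.1% of all wells of those groups. Across wells with PMA the level of EGR1 was related to that of IER2 with a Pearson r of 0.32 in J-LatA2 (n = 79 wells) and 0.57 in Jurkat (n = 36 wells), on log2(CPM + 1). EGR1 and EGR2 levels had an r of 0.07 and 0.31. These wells share plates, and total counts had an r of 0.35 with EGR1 in J-LatA2 and -0.02 in Jurkat, so the values are descriptions only.

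The viral construct is a feature of the table named HIVmini. With PMA in J-LatA2, 51 of the 55 wells with an HIVmini read had EGR1, 55 had IER2, 16 had EGR2 and 7 had FOS. Over all wells of that group the shares were 91.1% for EGR1, 100% for IER2, 27.8% for EGR2 and 12.7% for FOS. Of the 98 wells with an HIVmini read under SAHA, 7 had EGR1, 45 had IER2, 8 had FOS and 1 had EGR2, and over all wells of that group 8.1% had EGR1, 46.7% IER2 and 9.6% FOS. Within J-LatA2 with PMA the level of HIVmini had a Pearson r of 0.24 with EGR1 and 0.04 with IER2 (n = 79 wells), which is a weak relation in sparse counts.

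Other genes of the pathway were read from lists. Among 14 further AP-1 and related factors, 13 were tested and 0 were called with either agent in either line. ATF2 and CREB1, for example, had log2 changes with PMA of 0.36 ± 0.41 and 0.29 ± 0.42 in J-LatA2. The list's median log2 change with PMA was 0.42 in J-LatA2 and 0.32 in Jurkat, against 0.04 and 0.07 for all genes tested. With SAHA it was 0.09 and 0.32, against 0.12 and 0.11, and in J-LatA2 it was -0.62 (11 genes) by another measure, the plain ratio of second-batch sums with sums of 0 set to 3 counts.

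Of 17 other immediate early genes, 14 were tested and 0 were called against DMSO, although their median log2 change with PMA was 3.04 in J-LatA2 and 3.87 in Jurkat. By the plain ratio of second-batch sums, with sums of 0 set to 3 counts, those medians were 2.80 (13 genes) and 1.93 (13 genes), against 0.10 and 0.12 for all genes. SGK1, a serum-inducible kinase, stood at a plate median of 73.2 CPM with PMA and 0 with DMSO in J-LatA2, and was also at 0 with DMSO in Jurkat. Its log2 change was 5.72 ± 1.77 in J-LatA2 (adjusted p = 0.176, edgeR) and 6.26 ± 1.53 in Jurkat (adjusted p = 0.0713, edgeR). SGK1 was also read with SAHA, at plate medians of 31.3 CPM in J-LatA2 and 72.7 CPM in Jurkat. TNFAIP3, a feedback inhibitor of NF-kappaB, had log2 changes with PMA of 2.61 ± 0.60 (adjusted p = 0.0632, edgeR) and 2.57 ± 0.59 (adjusted p = 0.0575, edgeR), and was called for PMA against SAHA in J-LatA2 (3.03 ± 0.59, adjusted p = 0.0202, edgeR).

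For the members themselves the same medians were 5.49 with PMA in J-LatA2 and 3.27 in Jurkat, or 3.37 (10 genes) and 3.03 (9 genes) by that plain ratio. With SAHA they were 0.93 and 0.83, or 0.79 (9 genes) and 1.35 (8 genes) by that measure. Members above 0 by the fit numbered 9 of 10 with PMA and 6 of 10 with SAHA in each line. The share of all genes above 0 was not computed. EGR2 and EGR3 were at 0 on every DMSO plate, so with PMA they could not go down. With SAHA, EGR2 rested on 1 well in each line, and the Jurkat count takes in EGR3, which had no reads there and a change of 0.00. The counts are therefore no evidence of a shared direction.

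The kinases and cofactors upstream of these genes were read from further lists. Of 11 regulators (SRF, its partners ELK1, ELK3, ELK4, MRTFA and MRTFB, the EGR corepressors NAB1 and NAB2, and kinases of the RSK and MSK families), 0 were called in any comparison. Their median log2 change with PMA was 0.71 in J-LatA2 and 0.91 in Jurkat, against 0.04 and 0.07 for all genes. By the plain ratio of second-batch sums these medians were 1.30 and 1.02 (11 genes each), against 0.10 and 0.12 for all genes. RPS6KA1 had a log2 change with PMA of 1.71 ± 0.62 in J-LatA2 (adjusted p = 0.271, edgeR) and 1.84 ± 0.68 in Jurkat (adjusted p = 0.247, edgeR). NAB2, itself a target of EGR1 and named after its values were seen, stood at a plate median of 10.7 CPM with PMA and 0.508 CPM with DMSO in J-LatA2, and at 4.57 and 0 CPM in Jurkat. Of 19 members of the ERK, JNK and p38 cascades, 0 were called with PMA in either line, and their median log2 change was 0.23 in J-LatA2 and -0.03 in Jurkat. By the plain ratio of second-batch sums the latter was 0.01 (18 genes).

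Of 18 T cell genes known to carry AP-1 or EGR sites, 11 were tested, and 3 rose with PMA in each line, namely IL2RA, CD69 and VIM. Of all genes tested, 1.98% were called with PMA in J-LatA2 and 2.27% in Jurkat. The list was chosen with earlier results of these data known, so its count is no test of the list. CD69, an early activation antigen, rose by 9.63 ± 0.87 on the log2 scale in J-LatA2 (adjusted p = 0.000571, edgeR) and by 5.44 ± 0.72 in Jurkat (adjusted p = 0.00484, edgeR). IL2RA, a chain of the interleukin-2 receptor, rose by 12.99 ± 1.62 (adjusted p = 0.00799, edgeR) and 11.66 ± 1.83 (adjusted p = 0.0208, edgeR). VIM, which encodes an intermediate filament, rose by 2.53 ± 0.23 (adjusted p = 0.000537, edgeR) and 2.07 ± 0.23 (adjusted p = 0.00222, edgeR). With SAHA in J-LatA2, CD69 rose by 2.99 ± 0.64 (adjusted p = 0.0193, edgeR) and VIM by 0.93 ± 0.18 (adjusted p = 0.0136, edgeR). IL2RA was called higher there (7.37 ± 1.53, adjusted p = 0.0247, edgeR) and CD40LG lower (-6.11 ± 1.49, adjusted p = 0.0326, edgeR). IL2RA had a plate median of 0 and a maximum of 5.86 CPM with SAHA, against 0 with DMSO. CD40LG had a plate median of 0.155 and a maximum of 33.6 CPM with DMSO, so both changes rest on a minority of plates. In Jurkat with SAHA, VIM rose by 1.12 and CD40LG fell by 6.66. CD69, IL2RA and the other genes of this list answer to many factors besides the 10 described here.

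Handling of cells can itself induce immediate early genes, so stress markers are given beside them. The summed level of HSPA1A, HSPA1B, DNAJB1 and HSPH1 ranged over plates from 257 to 529 CPM with DMSO, 236 to 378 CPM with SAHA and 242 to 335 CPM with PMA in J-LatA2. In Jurkat the ranges were 337 to 491, 392 to 436 and 211 to 315 CPM. By this sum the highest PMA plate was below the highest DMSO plate in both lines, but DNAJB1 and HSPH1 made up most of the sum. HSPA1B alone had plate medians of 0.488, 3.71 and 5.78 CPM in J-LatA2 with DMSO, SAHA and PMA. In Jurkat they were 0, 1.84 and 0 CPM, and its plate ranges overlapped in both lines. HSPA1A was at 0 in J-LatA2 with DMSO and in Jurkat with PMA. Of 9 genes in the wider stress list, HSPE1 fell with PMA in both lines (-1.30 ± 0.23 and -1.34 ± 0.23) and HSP90AA1 fell in Jurkat (-1.36 ± 0.16). With SAHA, HSPA8 rose in both lines (0.79 ± 0.12 and 1.27 ± 0.15) and HSPE1 and HSPH1 fell in both. The median share of mitochondrial reads per well was 3.6%, 4.93% and 3.96% in J-LatA2 with DMSO, SAHA and PMA, and 3.42%, 4.51% and 3.67% in Jurkat. The part of handling, heat shock genes or mitochondrial share in the values of the members with PMA or SAHA was not tested.

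The genes whose pattern over the 24 plate sums was most like that of EGR1, among 5908 genes with a mean of at least 20 CPM, were CD82, MB and CHCHD2, each with a Pearson r of 0.92 on log2(CPM + 1). CD82, a tetraspanin, averaged 97.8, 146.7 and 1615 CPM over plates of J-LatA2 with DMSO, SAHA and PMA, and 144.4, 223 and 1194 CPM in Jurkat. MB, which encodes myoglobin, averaged 548 CPM in J-LatA2 with PMA and 35.9 CPM in Jurkat with PMA, and 0 or nearly 0 elsewhere. For JUNB they were NT5DC1 (r = 0.84), SEPTIN1 (0.83) and EXOSC4 (0.81). SEPTIN1 averaged 287, 136.5 and 709.9 CPM in J-LatA2 and 217, 56.1 and 623 CPM in Jurkat, in the same order of agents. For the sparse members the best values were 0.67 for JUND (MT-CYB, BLOC1S1 and MRPL40) and 0.64 for FOSL2 (LTV1), which at their counts is no finding.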

How the data were processed

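The authors deposited expected counts per gene and well, made with Salmon 1.5.1 and alevin on GRCh38.p13 per the submitters' processing notes, from full-length cDNA without molecular identifiers. The annotation and duplicate handling are "not given" in the sources used. Batches (2) were read from plate names and the series' design text. Of 480 wells, 410 with at least 500 genes and 1/10 of their plate's median total were kept (19756 to 984418 counts per well). Counts were summed by group and batch into 9 sums, rounded and tested with edgeR 4.0.16 (R 4.3.3; quasi-likelihood test, TMM factors 0.971 to 1.075, filterByExpr, terms for group and batch) on 13560 genes. Benjamini-Hochberg adjustment ran over all genes and calls are those with an adjusted p under 0.05. The SE beside an edgeR change is the absolute log2 change divided by the square root of the F statistic. The fit was tested on simulated data.

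CPM per plate came from unscaled sums over the 24 combinations of group and plate. Shares of wells carry exact Clopper-Pearson 95% intervals (scipy 1.17.1), and thinned shares use 100000 counts per well. Folds against 0 use a floor of 3 counts per group. Alternatives were DESeq2 1.42.0, no filter, no batch term, sums per plate, the second batch alone, all 480 wells, limma 3.58.1 with equal weight per well, and leaving out each sum or plate. Promoters are RefSeq windows of 250 bases.

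The members and the gene lists were chosen with earlier results of these data known. All 10 members were named, with up to 4 called genes of each list by size of change (with none called, up to 2 of the highest mean CPM, used only to choose names), and the 3 genes most like EGR1, JUNB, JUND and FOSL2 by Pearson correlation over the 24 sums. Some list and marker results are not reported here.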

Additional observations from a re-analysis of the deposited data

Results flagged for a closer look

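In groups of 5 plates, 8 of 23 tested sets held a plate that stood far from the other 4 by Dixon's criterion (critical value 0.71), where chance flags about 1 in 20 for measurements that vary freely. That rate does not apply to 5 of the 8, in which 4 plates were at 0, since any read on the fifth then meets the criterion. These are EGR1, FOS, FOSL2 and JUND in Jurkat with DMSO and EGR2 in J-LatA2 with SAHA. EGR1 stood at 1.14 CPM on plate P2458 of J-LatA2 with DMSO, with the next plate at 0.254, and at 6.09 CPM on plate P2449 of Jurkat with DMSO, where 1 well held all its reads. EGR2 stood at 6.57 CPM on plate P2771 of J-LatA2 with SAHA, again from 1 well, with 0 on the other plates.

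FOS stood at 6.83 CPM on plate P2458 of J-LatA2 with DMSO and at 3.65 CPM on plate P2449 of Jurkat with DMSO. FOSL2 stood at 0.609 CPM on plate P2449 and JUND at 0.299 CPM (1 read) on plate P2770 of Jurkat with DMSO. IER2 was flagged for a low value, 9.34 CPM on plate P2769 of Jurkat with DMSO, where the other 4 plates stood at 72.85 CPM or more.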

How the results depend on the processing

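The labels carry no replicate number that pairs wells across groups, so the replicate block used was the batch term, with batches read from plate names. Without it, the members called for PMA against SAHA in J-LatA2 went from 2 to 1 and those for PMA in J-LatA2 from 3 to 2 (EGR1 lost in both), and the counts for the other comparisons stayed as they were. The number of members called with PMA in J-LatA2 (3) was 0 with limma at equal weight per well, and 1 to 4 with 1 sum or plate left out. With PMA in Jurkat (1) it was 3 with DESeq2, 2 with sums per plate, with the second batch alone and with all 480 wells, 0 with limma, and 1 to 4 with 1 left out. With SAHA in J-LatA2 (1) it was 2 with DESeq2 and with all wells, 0 with limma, and 0 to 2 with 1 left out. With SAHA in Jurkat (0) it was 3 with DESeq2, 1 with sums per plate and with the second batch alone, and 0 to 2 with 1 left out. For PMA against SAHA it was 0 with limma in both lines, 1 to 2 with 1 left out in J-LatA2, and 2 with DESeq2 and with sums per plate in Jurkat. DESeq2 called 1 difference in PMA response. The limma fit called 0 of 13560 genes in every comparison.

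The change of IER2 with SAHA in J-LatA2 turned to -0.08 with sums per plate, -0.65 with the second batch alone and -0.82 with limma, and ran from -0.46 to 0.76 with 1 left out. That of JUNB turned to 0.32 with all wells, and that of EGR2 ran from 0.00 to 8.52 with 1 left out. The EGR1 difference in PMA response ran from -3.05 to 7.98 with 1 left out. The other changes recomputed kept their sign. Of all recomputed changes, 534 stayed on their side of the threshold, 40 passed it and 27 lost it, and the cause was not tested. IER2 with PMA was called in both lines in 17 of 17 count-based fits. Depth limits members read in few wells, such as EGR3 and FOSL2 with 7 wells each.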
